A study of Mus musculus with 4 samples.

Results

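Transcript levels of the Wnt pathway were examined in neurosphere cells of the adult mouse subventricular zone. The cells had received Pax6 and were differentiated with or without inhibition of PARP1 and PARP2. The genes were chosen by name: every mouse Wnt, Frizzled (Fzd), secreted Frizzled-related (Sfrp), Dickkopf (Dkk) and R-spondin (Rspo) gene with a number, plus Lef1, Tcf7, Tcf7l1, Axin1, Axin2, Ctnnb1, Lrp5, Lrp6, Znrf3, Rnf43, Nkd1, Lgr4, Lgr5 and Apcdd1. Of these 55 genes 54 had a probe set that the platform annotation gives to 1 gene, and Tcf7 was not analysed here. They stand among 19937 genes on the array. No expression value entered the choice of genes, and where a gene had more than 1 probe set the one with the highest mean over all arrays was read.

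Sphere-forming cells came from the lateral walls of the lateral ventricles of C57BL/6 mice aged 9 to 12 weeks and were used as primary neurospheres. All cells received non-targeting control siRNAs and then viral particles of pCLIG-Pax6, which deliver Pax6, a transcription factor that drives neuronal fate. The treated group (2 arrays) was differentiated in the presence of 100 nM olaparib, an inhibitor of PARP1 and PARP2, in 0.01% DMSO. The control group (2 arrays) was differentiated in 0.01% DMSO alone. The treatment labels name olaparib and DMSO for the 10 h of differentiation. Both were cultured for 36 h after transduction and differentiated for 10 h by plating on laminin without growth factors before RNA was taken. No array of untransduced cells was analysed here, so every value below is from cells with added Pax6. Within a group the arrays are labelled as biological replicates, without a statement on whether separate mice were used. The p-values thus rest on the spread between these samples, moderated by a variance prior taken over all genes tested.

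Wnt ligands are secreted proteins that bind Frizzled receptors together with the co-receptors LRP5 and LRP6. In the canonical branch this stops a complex built on axin and APC from marking beta-catenin for destruction, and beta-catenin then joins TCF/LEF factors on target genes. R-spondins bind LGR receptors and spare Frizzled from the ubiquitin ligases ZNRF3 and RNF43, while Sfrp and Dkk proteins, Nkd1, Apcdd1 and Axin2 hold the signal back. In the subventricular zone Wnt signalling is known for its effect on the division of progenitors and on neurogenesis. Other branches act without beta-catenin on cell polarity and axon growth.

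All values below are the deposited log2 values of the authors, so a difference of 1 is a doubling. Array medians lay between 6.60 and 6.68. Since the table gives no detection call, the array background was set from 1194 olfactory and vomeronasal receptor genes, chemosensory genes of the nose: 95% of them had a mean under 6.43. Of 10 neural stem and progenitor markers 9 had a probe set, and all 9 lay above that level. The background was also exceeded by 1 of 6 endothelial markers (Flt1, with Cldn5, Pecam1, Cdh5, Kdr and Emcn not above it), 3 of 6 microglial markers, 3 of 7 pericyte and fibroblast markers and 4 of 6 choroid plexus markers. With so few arrays every value has limited precision.

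By that level 43 of the 54 Wnt pathway genes (79.6%) lay above background, against 69.3% of all genes. The level is a lenient one, since 15 of 30 genes of unrelated tissues such as liver, muscle and testis also lay above it. All 10 Frizzled genes, both LRP and both LGR genes were above it, as were Axin1, Axin2, Ctnnb1, Nkd1, Apcdd1, Lef1, Tcf7l1 and Znrf3. Rnf43 was not. Of the secreted inhibitors Sfrp1, Sfrp2, Sfrp4, Dkk2, Dkk3 and Dkk4 were above it and Sfrp5 and Dkk1 were not, although Dkk4, at a mean of 6.44, lay at the level itself. Among the agonists Rspo1, Rspo3 and Rspo4 were above it, the last 2 only just at means of 6.46, and Rspo2 was not.

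Of 19 Wnt ligand genes 12 were above background: Wnt2b, Wnt3a, Wnt4, Wnt5a, Wnt5b, Wnt7a, Wnt7b, Wnt9a, Wnt9b, Wnt10a, Wnt10b and Wnt11. Wnt1, Wnt2, Wnt3, Wnt6, Wnt8a, Wnt8b and Wnt16 were not, with values between 6.15 and 6.47 over all arrays. A stricter check used the values of those 30 genes of unrelated tissues, whose 95th percentile was 7.06 and whose highest mean was 7.77. Above 7.06 there were 20 of the Wnt pathway genes, and the ligands among them were Wnt4, Wnt5a, Wnt7a and Wnt7b. Above 7.77 there were 4: Fzd1, Fzd3, Lrp6 and Ctnnb1. Values of different probe sets are not compared as transcript levels here, since each probe set has its own brightness.

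**Figure D1:**
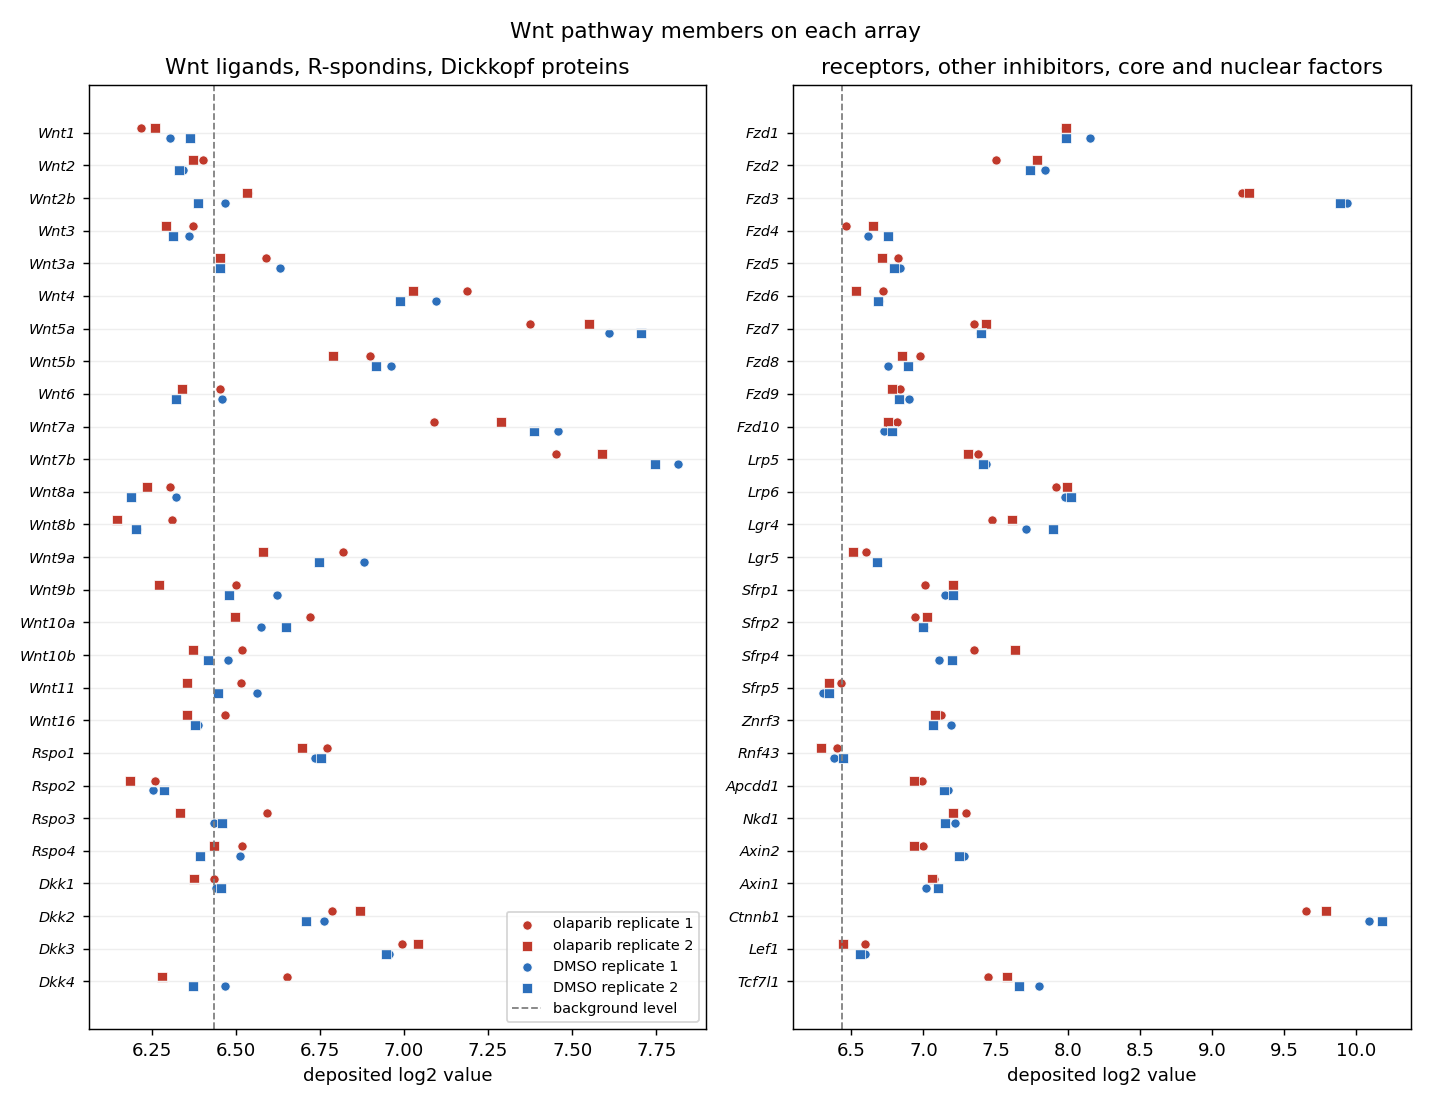
Deposited log2 values (x axis) of the 54 Wnt pathway genes (y axis) on the 2 olaparib arrays (red) and the 2 DMSO arrays (blue), 1 point per array. The dashed line marks the background level of 6.43. Fzd3 and Ctnnb1 show red and blue points well apart, while most ligands lie near the line and mix.

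The comparison asked which of these transcripts differ when PARP is inhibited during differentiation. Of the 44 genes bright enough to be tested, 3 fell with olaparib and 1 rose. Those that fell were Fzd3, Ctnnb1 and Axin2, and Sfrp4 rose. The test was limma's moderated test over all 13956 genes above a mean of 6.42, with Benjamini-Hochberg adjustment and a threshold of 0.05. In that test 6.22% of all genes were called, 2.84% as higher and 3.37% as lower with olaparib. Among the Wnt pathway genes 9.09% were called, 2.27% as higher and 6.82% as lower. With so few genes these shares are near those of the whole array.

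Fzd3 encodes a Frizzled receptor known for its part in planar cell polarity and in the growth and guidance of axons. Its values were 9.21 and 9.26 with olaparib, against 9.94 and 9.89 with DMSO. Both olaparib arrays lay far below both DMSO arrays, and the gap was many times the spread within either group. Fzd3 fell by 0.68 on the log2 scale (95% interval -0.91 to -0.45, limma adjusted p = 0.000652), or 1.60-fold lower with olaparib.

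The other 9 Frizzled genes gave no call, and 0 of them had an unadjusted p under 0.05 in limma. Their changes lay between -0.14 for Fzd2 and 0.09 for Fzd8, and the groups overlapped in every one of the 9. Fzd2 passed with olaparib replicate 2 left out. Fzd1 had values of 7.98 and 7.99 with olaparib, against 8.16 and 7.98 with DMSO. Its change of -0.09 had a 95% interval of -0.28 to 0.11, so a fall as large as that of Fzd3 lies outside it. Fzd7 had means of 7.39 in both groups. A difference between Fzd3 and the other receptors was not itself tested.

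Ctnnb1 encodes beta-catenin, which carries the canonical signal to the nucleus and also links cadherins to the cytoskeleton. Its values were 9.65 and 9.79 with olaparib, against 10.09 and 10.18 with DMSO. The groups did not overlap. Ctnnb1 fell by 0.42 (95% interval -0.66 to -0.17, limma adjusted p = 0.0358). The call was lost after median centring of the arrays (adjusted p = 0.146), where the change was -0.40.

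Axin2 encodes a scaffold of the destruction complex and is a feedback target of canonical Wnt signalling in many tissues, often read as a measure of pathway activity. Its values were 7.00 and 6.93 with olaparib, against 7.28 and 7.24 with DMSO. Both olaparib arrays lay below both DMSO arrays. Axin2 fell by 0.30 (95% interval -0.46 to -0.14, limma adjusted p = 0.0227). Its olaparib mean of 6.96 lies above the receptor gene background and under the 95th percentile of the genes of unrelated tissues. Axin1, the constitutive scaffold, had means of 7.06 in both groups (change 0.01, adjusted p = 0.989).

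Sfrp4 encodes a secreted protein that binds Wnt ligands. Its values were 7.35 and 7.63 with olaparib, against 7.11 and 7.20 with DMSO. The groups did not overlap, and the olaparib arrays differed by more than the DMSO arrays did. Sfrp4 rose by 0.34 (95% interval 0.15 to 0.53, limma adjusted p = 0.0286), a 1.26-fold difference. Without olaparib replicate 2 its change was 0.20 and did not pass (adjusted p = 0.157), nor did it pass with low values raised to the background (adjusted p = 0.0565) or without a trend in the variance prior (adjusted p = 0.0624). Sfrp1, another member of that family, had 7.01 and 7.20 with olaparib, against 7.15 and 7.20 with DMSO. Its change of -0.07 (adjusted p = 0.759) was 0.03 without olaparib replicate 1. Sfrp2 had means of 6.98 with olaparib and 7.00 with DMSO.

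All 4 calls rest on how the error is estimated from so few arrays. In a limma fit of 21704 probe sets, unnamed ones included, 0 of the 44 passed, and the adjusted p was 0.0671 for Fzd3, 0.177 for Axin2, 0.191 for Ctnnb1 and 0.247 for Sfrp4. The changes themselves were the same, and 14 of the 21704 probe sets passed there in all. Without a filter on dim genes, which brings all 19937 genes into the adjustment, Fzd3 passed (adjusted p = 0.00216), and Ctnnb1 (0.0572), Axin2 (0.0641) and Sfrp4 (0.0877) did not. With DMSO replicate 1 or DMSO replicate 2 left out, Fzd3 passed (adjusted p = 0.0483 and 0.0226) and the other 3 did not. With olaparib replicate 1 or olaparib replicate 2 left out, all 4 passed but Sfrp4 without replicate 2.

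**Figure D2:**
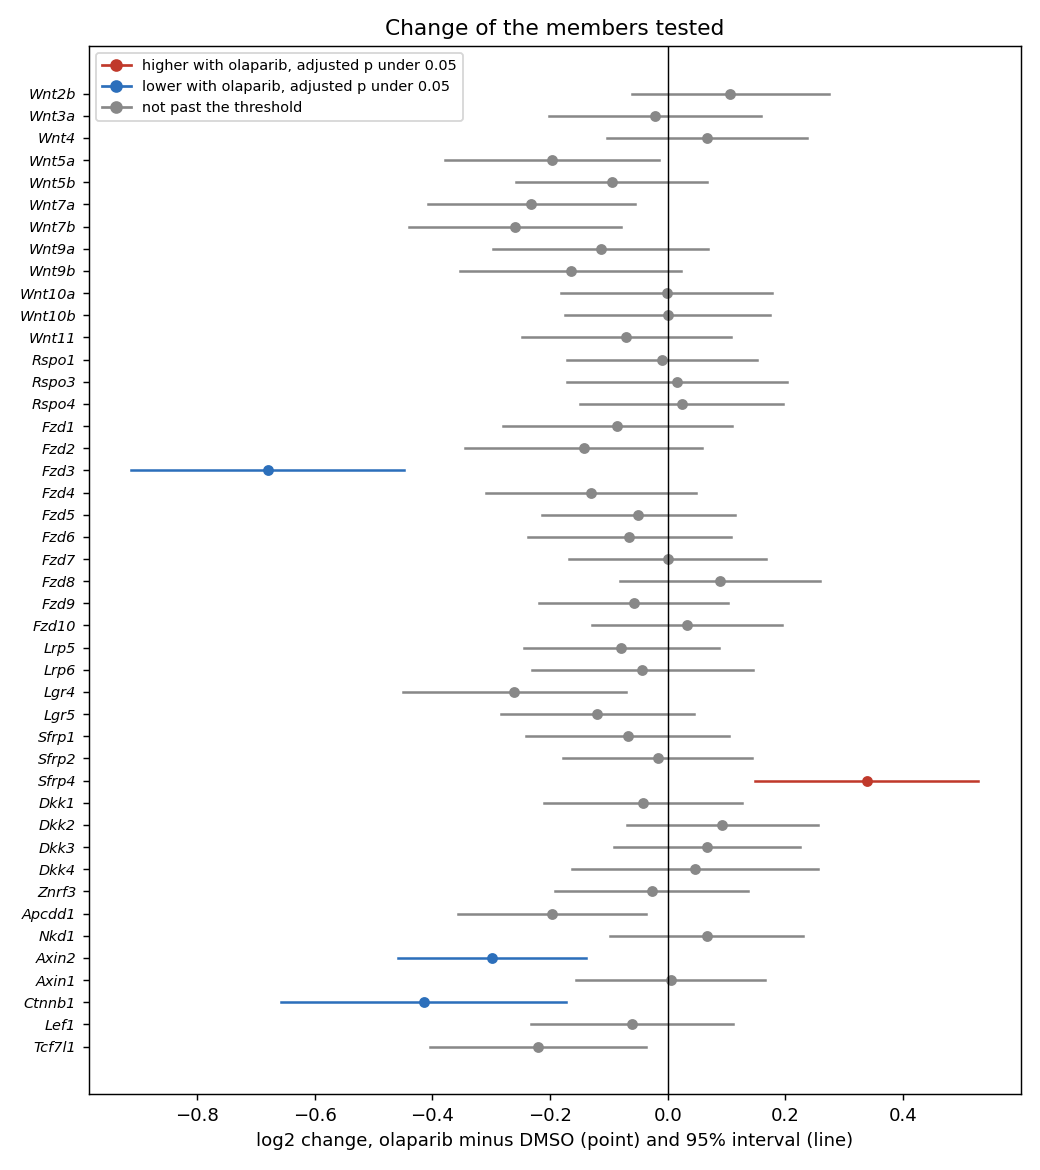
Log2 change, olaparib minus DMSO (x axis), of the 44 Wnt pathway genes tested (y axis), with the 95% interval of limma as a line. Blue marks Fzd3, Axin2 and Ctnnb1, which fell, red marks Sfrp4, which rose, and grey marks the 40 that did not pass.

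The 250 bases before the RefSeq start sites of Axin2 and Ctnnb1 are printed because both genes fell and Axin2 is the usual target of TCF/LEF factors. They lie at chr11:108920099-108920348 and chr9:120933150-120933399 in GRCm38.p6, both on the plus strand, and for Ctnnb1 the more upstream of 2 start sites is shown. Capitals would mark a match to the TCF/LEF core. It was searched as CTTTGAA or CTTTGAT and also as CTTTGTA or CTTTGTT, on both strands, and neither stretch holds one.
Axin2: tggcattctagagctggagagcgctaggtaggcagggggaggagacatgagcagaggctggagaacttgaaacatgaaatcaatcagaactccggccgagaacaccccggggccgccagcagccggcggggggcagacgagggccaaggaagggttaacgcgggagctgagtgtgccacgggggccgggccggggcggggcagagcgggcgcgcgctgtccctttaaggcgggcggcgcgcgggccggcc
Ctnnb1: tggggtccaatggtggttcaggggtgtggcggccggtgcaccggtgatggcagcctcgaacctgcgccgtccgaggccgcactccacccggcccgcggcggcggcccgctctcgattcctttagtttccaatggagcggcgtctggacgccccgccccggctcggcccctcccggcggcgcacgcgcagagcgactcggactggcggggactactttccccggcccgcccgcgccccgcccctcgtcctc
No promoter of Fzd3 or Sfrp4 is shown. Of 42 promoters in the table for 34 of the Wnt pathway genes, 5 (11.9%) held a match, those of Dkk1, Fzd7, Lef1, Wnt5b and Wnt11. Over all 32851 promoters of that length the share was 14.8%. The median GC content was 66.8% in the promoters of the Wnt pathway genes and 52.4% in all. These letters describe the window and say nothing of binding outside it.

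A further 6 genes had an unadjusted p under 0.05 without passing the adjusted threshold, and all 6 had lower means with olaparib. Together with the 4 called genes this makes 10 of 44 at that p (22.7%), against 19.1% of all genes tested. Of the 44, 20.5% were lower at that p, against 9.88% of all genes, and 2.27% were higher, against 9.18%.

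Wnt7a and Wnt7b encode a pair of related ligands made by neural progenitors and known for signalling to the vessels of the developing brain. Wnt7b had 7.45 and 7.59 with olaparib, against 7.82 and 7.75 with DMSO, a change of -0.26 (limma adjusted p = 0.0831). Wnt7a had 7.09 and 7.29 with olaparib, against 7.46 and 7.39 with DMSO, a change of -0.23 (adjusted p = 0.118). In both the 2 olaparib arrays lay under the 2 DMSO arrays, and olaparib replicate 1 was the lower of the pair. Wnt5a, a ligand known for signalling without beta-catenin, had 7.37 and 7.55 with olaparib, against 7.61 and 7.71 with DMSO (change -0.20, adjusted p = 0.218). Here too the groups did not overlap, as in 47.1% of all genes tested.

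Lgr4 encodes a receptor of R-spondins. It had 7.48 and 7.61 with olaparib, against 7.71 and 7.90 with DMSO, a change of -0.26 (limma adjusted p = 0.0994). Tcf7l1 encodes the TCF factor that mostly represses its targets. It had 7.44 and 7.58 with olaparib, against 7.80 and 7.66 with DMSO, a change of -0.22 (adjusted p = 0.162). Apcdd1, a membrane inhibitor that is itself a Wnt target in skin, had 6.99 and 6.93 with olaparib, against 7.17 and 7.14 with DMSO (change -0.20, adjusted p = 0.148). The groups overlapped in none of the 3, which also held for 47.1% of all genes tested.

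Of these 6, Wnt5a, Wnt7a, Wnt7b, Lgr4 and Tcf7l1 passed when olaparib replicate 2 was left out (adjusted p between 0.0108 and 0.0363). They did not pass with any other array left out, and Apcdd1 passed in none of its 16 alternatives. The changes without olaparib replicate 1 were smaller for the 5 genes, as small as -0.11 for Wnt5a and -0.13 for Wnt7a. Without an olaparib array the spread comes from the DMSO pair alone. That pair was the closer one for Wnt5a, Wnt7a and Wnt7b. For Lgr4 and Tcf7l1 it was the wider one, with SDs of 0.131 and 0.102, against 0.096 for both with olaparib. The median within-group SD over all genes tested was 0.077 for olaparib and 0.048 for DMSO.

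**Figure D3:**
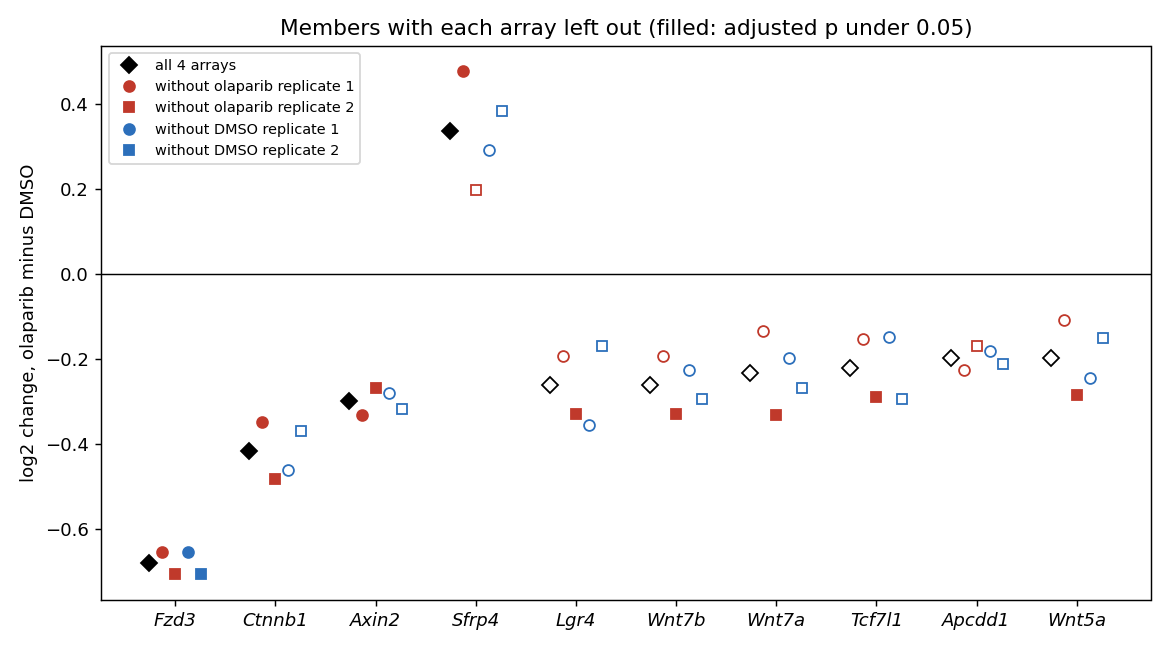
Log2 change, olaparib minus DMSO (y axis), of the 10 Wnt pathway genes at an unadjusted p under 0.05 (x axis), with all 4 arrays (black) and with each array left out. Filled symbols have an adjusted p under 0.05. Fzd3 stays filled in all 5 fits, while Wnt7a and Wnt7b are filled in 1.

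Other feedback genes gave no call. Nkd1, an inhibitor that binds dishevelled and a Wnt target in many tissues, had 7.29 and 7.21 with olaparib, against 7.22 and 7.15 with DMSO (change 0.07, limma adjusted p = 0.754). Znrf3, the ligase that removes Frizzled from the surface, had 7.12 and 7.08 with olaparib, against 7.19 and 7.07 with DMSO (change -0.03, adjusted p = 0.918). The 2 groups overlapped in both genes, unlike in Axin2 and Apcdd1. Lef1, a TCF/LEF factor and target, had 6.59 and 6.44 with olaparib, against 6.60 and 6.56 with DMSO (change -0.06, adjusted p = 0.794), all close to background. Lrp6 had 7.92 and 7.99 with olaparib, against 7.98 and 8.02 with DMSO (change -0.04, 95% interval -0.23 to 0.14), and the difference of Lrp5 was -0.08.

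No Dickkopf or R-spondin gene passed. Dkk3, the divergent member of its family, had 7.00 and 7.04 with olaparib, against 6.96 and 6.95 with DMSO. Its groups did not overlap, but the change was only 0.07 (95% interval -0.09 to 0.23, limma adjusted p = 0.738). Changes of the 4 Dkk genes lay between -0.04 and 0.09 and those of the 3 R-spondin genes tested between -0.01 and 0.02. None of these 7 had an unadjusted p under 0.05. Dkk4 passed as higher without olaparib replicate 2, but only on the other olaparib array at 6.65, and the array left out was at 6.28, under background. Of the 12 ligands tested, 0 passed in limma, and their changes ran from -0.26 to 0.11. An unadjusted p under 0.05 was reached by 3 of the 12 (25%), all lower. Of all genes tested 9.88% were lower at that p, and 19.1% reached it in either direction. Wnt4 had 2 probe sets, with a change of 0.07 on the brighter and -0.05 on the other.

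The 10 genes under the filter were Wnt1, Wnt2, Wnt3, Wnt6, Wnt8a, Wnt8b, Wnt16, Rspo2, Rnf43 and Sfrp5. Their differences between group means lay between -0.09 and 0.06. RefSeq places 8 ligand genes in 4 neighbouring pairs, Wnt6 with Wnt10a, Wnt3a with Wnt9a, Wnt3 with Wnt9b, and Wnt1 with Wnt10b. In 3 of these pairs 1 ligand lay above background and the other did not, and both Wnt3a and Wnt9a lay above it. Wnt10b, at a mean of 6.45 and above background on 2 of 4 arrays, and Wnt9b, with means of 6.39 with olaparib and 6.55 with DMSO, lay close to that level. None of the 5 that were tested passed. In the fit without olaparib replicate 1 Wnt9a and Wnt9b passed as lower, each on a single olaparib array, which for Wnt9b lay under background at 6.27.

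Over the 44 genes tested the median change was -0.05, against 0.0013 over all 13956 genes, and over all 54 the median difference was -0.04. Of the 44, 32 had a negative and 12 a positive change, some very close to 0. Of all 13956 genes 6913 had a negative and 7043 a positive change. The groups did not overlap in 17 of the 44 (38.6%), against 47.1% of all genes tested. Olaparib was higher in 4 of the 44 and lower in 13 of the 44. Of all 13956 genes 3235 (23.2%) were higher in this way and 3337 (23.9%) lower. The smallest p that an exact permutation test of 2 against 2 arrays can give is 0.333, so that test could call no single gene.

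Some cell type markers differed between the same arrays. Of 9 neural stem and progenitor markers and 4 ependymal markers tested 0 passed in limma, against 6.22% of all genes. At an unadjusted limma p under 0.05, 2 of the 9 progenitor markers were lower and 1 was higher (33.3%, against 19.1% of all genes). Of 7 immature neuron markers tested 3 fell (Dcx, Nsg2 and Map2) and 0 rose (42.9% lower, against 3.37% of all genes). Of 5 astrocyte markers 2 fell (Gfap and Aqp4) and 0 rose (40.0% lower), and S100b, which did not pass, had means of 8.41 with olaparib and 8.24 with DMSO. Of 5 oligodendrocyte lineage markers 1 rose (Cspg4, by 0.33) and 0 fell (20.0% higher, against 2.84% of all genes). At an unadjusted limma p under 0.05, 2 of these 5 were higher and 1 was lower (60.0%, against 19.1% of all genes). At that p 5 of the 7 immature neuron markers (71.4%) and 3 of the 5 astrocyte markers (60.0%) were lower and 0 were higher. Of all genes 9.88% were lower. Of 4 choroid plexus markers 1 fell (Otx2, by 0.35) and 0 rose (25% lower), with Ttr and Clic6 not above background. The summed linear signal of the 8 immature neuron markers was 2622 and 2948 with olaparib, against 3807 and 4005 with DMSO, and Stmn2 was the marker not above background. The sum of the 6 astrocyte markers was 5473 and 6442 with olaparib, against 7774 and 7563 with DMSO, with Gjb6 not above background. The part of these markers in the falls of Fzd3, Ctnnb1 and Axin2 was not tested. In such bulk RNA fewer cells of a type and less RNA per cell cannot be told apart.

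The rest of the pathway was read from 6 lists with 90 genes, of which 81 were tested. Of these 2 rose and 3 fell (6.17%, near the 6.22% of all genes). Among 18 other receptors and planar cell polarity genes 2 fell and 0 rose (11.1% lower, against 3.37% of all genes). At an unadjusted p under 0.05 there were 5 of the 18 (27.8%), all lower, against 9.88% of all genes. Gpc4, a glypican that holds Wnt proteins at the cell surface, had 8.15 and 8.23 with olaparib, against 8.69 and 8.62 with DMSO. It fell by 0.46 (limma adjusted p = 0.0063). Daam1, a formin that links dishevelled to the actin cytoskeleton, had 8.35 and 8.58 with olaparib, against 8.92 and 8.97 with DMSO, and fell by 0.48 (adjusted p = 0.00971). The groups were apart in both. Neither passed with either DMSO array left out (adjusted p between 0.0706 and 0.177).

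Among 25 genes of dishevelled and the destruction complex 1 fell and 0 rose (4.0% lower, against 3.37% of all genes). At an unadjusted p under 0.05, 2 were higher and 2 lower (16.0% in all, against 19.1% of all genes). Apc2, a relative of APC found mainly in neurons, had 6.95 and 7.08 with olaparib, against 7.49 and 7.23 with DMSO. It fell by 0.35 (limma adjusted p = 0.0214), and by 0.22 without DMSO replicate 1 (no longer past the threshold). Tnks and Tnks2 encode the tankyrases, PARP family enzymes that mark axin for destruction and are not the named targets of olaparib here. Tnks had 8.87 and 8.86 with olaparib, against 8.96 and 8.89 with DMSO (change -0.05, adjusted p = 0.867). Tnks2 had 9.78 and 9.90 with olaparib, against 9.71 and 9.82 with DMSO (change 0.07, adjusted p = 0.848). Neither tankyrase passed, and the groups of Tnks2 overlapped.

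Also tested were 3 genes of ligand secretion and release (Porcn, Wls and Notum), 8 other secreted or membrane inhibitors and 13 nuclear partners of beta-catenin. Of these 0 passed in limma, against 6.22% of all genes. At an unadjusted p under 0.05 there were 0 of the 3, 2 of the 8 and 1 of the 13. Of the inhibitors 1 was higher and 1 lower, and the nuclear partner was lower. Of all genes 19.1% reached that p in either direction. Of 14 tested genes known as Wnt targets in other tissues 2 rose and 0 fell (14.3% higher, against 2.84% of all genes), with a median change of 0.14. At an unadjusted p under 0.05 there were 6 of the 14 (42.9%), all higher, against 9.18% of all genes. Ccnd1, which encodes cyclin D1, had 10.78 and 11.02 with olaparib, against 10.35 and 10.21 with DMSO, and rose by 0.62 (adjusted p = 0.00433). Its call was lost with DMSO replicate 1 left out (adjusted p = 0.0613) and with DMSO replicate 2 left out (0.213). Fosl1, an AP-1 factor, had 7.50 and 7.53 with olaparib, against 7.11 and 6.92 with DMSO, and rose by 0.51 (adjusted p = 0.00066). Both are also induced by growth factor signalling, and their rise was known from earlier results of these data, so the list is no independent evidence. Sp5, Sp8, Ccn4, Bmp4 and Neurod1 of that list were not above background.

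The split of calls in the 6 lists moved with the scaling. There were 2 higher and 3 lower calls in the values as deposited, 4 and 3 after median centring, 6 and 3 after quantile normalization and 7 and 3 after cyclic loess normalization. When all probe sets shared the fit 0 of the 81 passed in limma.

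**Figure D4:**
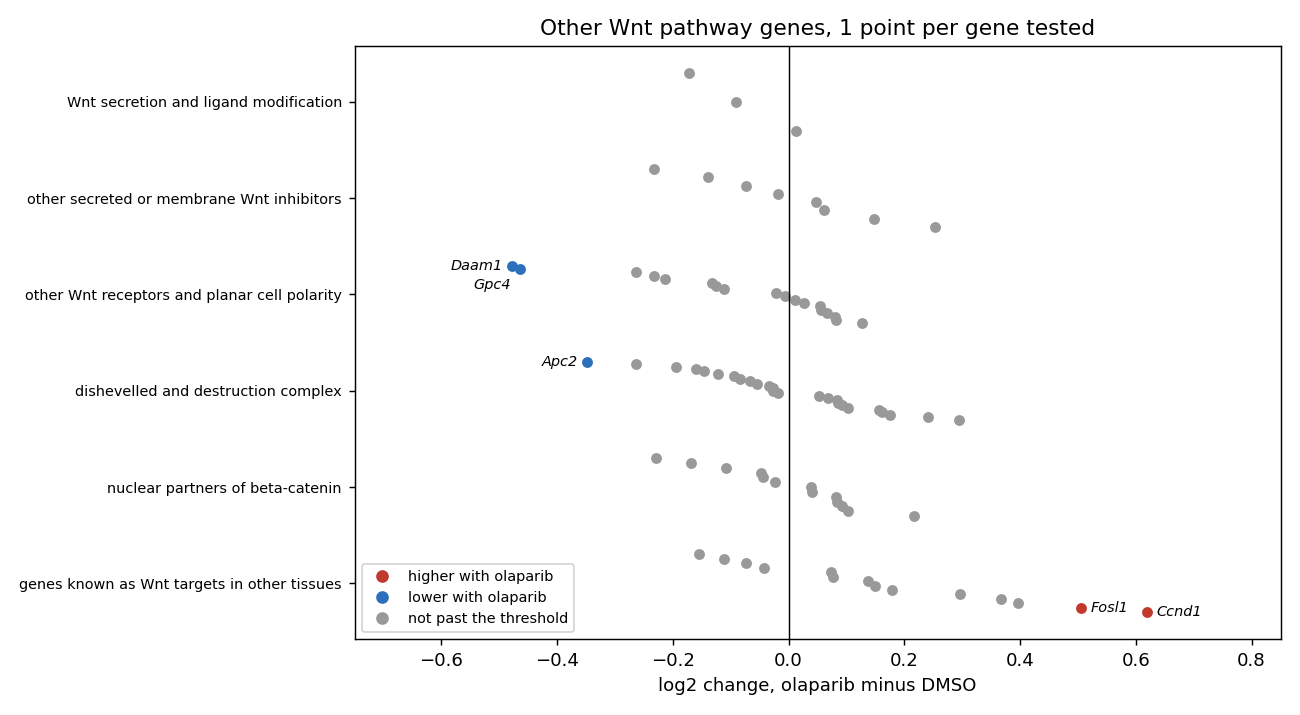
Log2 change, olaparib minus DMSO (x axis), of the 81 tested genes of 6 further Wnt pathway lists (y axis), 1 point per gene. Blue marks Gpc4, Daam1 and Apc2, which fell, red marks Ccnd1 and Fosl1, which rose, and grey marks genes that did not pass.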

How the data were processed

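Per the labels' protocols, 40 ng of total RNA was amplified and its biotinylated product read on an Affymetrix mouse gene array, with a single array for each sample. The authors deposited log2 values, 1 per probe set and array. Their background correction, normalization and summarisation are not given in the sources used here. Of 34760 probe sets 21640 named 1 gene, 1321 several and 11799 were unlisted in the platform annotation. Of 19937 genes 19855 matched RefSeq (GRCm38.p6), which gave current symbols. The antisense gene Fzd10os was not counted as a Frizzled gene.

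Changes are olaparib minus DMSO. Genes above the 30th percentile of the 4-array mean entered limma 3.58.1 (R 4.3.3; lmFit, then eBayes with a trend), and the two-sided p-values were adjusted by Benjamini-Hochberg across those genes. Every adjusted p is from limma, and the spread has 2 residual degrees of freedom before the prior. The prior had 18.1 degrees of freedom, so it weighed more than the spread of the gene itself. In the fit of all probe sets it had 5.2. Replicate numbers name arrays only. The fit was tested on simulated data with variances drawn from its own prior, which checks the code and not the calls. Background was the 95th percentile of olfactory and vomeronasal receptor genes.

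Per-array values are given for genes at an unadjusted p under 0.05 and for Axin2, Lef1, Nkd1, Apcdd1, Znrf3, Ctnnb1, Lrp6, Fzd1, Sfrp1, Dkk3 and Wnt7a, and in the further lists for up to 4 called genes each and both tankyrases. Genes named beside these stand for a range or a relative. The members, lists and tests were chosen with earlier results of these data known. The alternatives were other filters, scalings, variance priors, array weights, a floor, means of probe sets, a fit over all probe sets, a threshold of 0.1, other background levels and leaving out each array. Promoters are those of RefSeq in GRCm38.p6. Plots used matplotlib 3.10.9 (Python 3.11.15).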

Additional observations from a re-analysis of the deposited data

How the results depend on the processing

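The count of 4 Wnt pathway genes past the threshold was 1 without a filter on dim genes, 0 with all probe sets in the fit, and between 1 (without either DMSO array) and 10 (without olaparib replicate 2) with 1 array left out. The other alternatives gave 3 to 6. Over all genes the count was 868 as reported, 573 without a filter and 1321 at a threshold of 0.1. With all probe sets in the fit 14 probe sets passed, unnamed ones included. The 5 calls in the further lists became 10 with a filter at the 50th percentile, 9 after quantile normalization, 10 after cyclic loess, 9 with robust eBayes, 8 with array weights, 0 with all probe sets, 13 at a threshold of 0.1 and 1 to 18 with an array left out (1 without DMSO replicate 1, 18 without olaparib replicate 1). The 43 genes above background were 20 against the 95th percentile and 4 against the highest of the unrelated tissue genes, 33 at the 99th percentile of the receptor genes and 49 at the 90th. Over the 24 genes with values given in full there were 383 further fits: 344 kept direction and side of the threshold, 31 lost a call, 5 gained one and 3 changed sign. The sign changes were in uncalled genes with an array left out: Lef1 ran from -0.14 to 0.016, Sfrp1 from -0.16 to 0.028 and Znrf3 from -0.087 to 0.032. The cause was not tested. Leaving out an array leaves 1 array in a group, whose spread is taken from the other pair. Dim signal limits the ligands, of which 7 of 19 were not above background. No paired analysis was possible because the labels number only the first array of each group and tie no arrays across the groups.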
